A study of Mus musculus with 52 samples.

Results

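Chromosome 8 promoters were taken as every promoter interval that the deposited tables place on mouse chromosome 8, which gave 1037 of the 20633 promoters in the series. The chromosome was selected on its promoter reads, already known to be higher in the Kdm2a/b-JmjC line, and therefore the levels of the lines relative to each other are given below as a description, without tests. Of the 1037 promoters, 1027 could be paired with a gene symbol and 641 (61.8%) were CpG-rich, against 54.6% of all promoters. A mean of at least 5 RPM over all libraries (RPM, promoter reads scaled so that every library has the same total) was reached by 921 of them, and the other 116 are described separately.

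Calibrated ATAC-seq had been performed on 4 conditional mouse embryonic stem cell (mESC) lines, each untreated (UNT) or treated with 800 nM 4-hydroxytamoxifen for 96 h (TAM), in 26 libraries of 8 groups. In ATAC-seq the Tn5 transposase inserts adapters into accessible DNA, and Drosophila SG4 cells mixed into each sample calibrate the signal. The lines rely on a tamoxifen-inducible Cre recombinase, which the study's methods place at the Rosa26 locus for Kdm2a/b-JmjC and for the parent of Kdm2a-CXXC, and the untreated cells carried the same loxP alleles as the treated cells. In Kdm2a/b-JmjCfl/fl cells (n = 3 per group) tamoxifen removes the long forms of KDM2A and KDM2B, which hold the demethylase domain. In Kdm2a/b-CXXCfl/fl (n = 4 per group), Kdm2a-CXXCfl/fl and Kdm2b-CXXCfl/fl cells (n = 3 per group each) it deletes the zinc finger CxxC domain of both proteins or of the named one. The lines did not share a history: the Kdm2a/b-JmjC line was derived from mice made with targeted M1 mESCs, the Kdm2a-CXXC line was an edited clone of Rosa26::CreERT2 mESCs, and the Kdm2a/b-CXXC line was edited from Kdm2b-CXXC cells. Genotype and clonal origin therefore cannot be told apart between lines. The lines are named below without the suffix fl/fl.

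KDM2A and KDM2B bind unmethylated CpG dinucleotides through their CxxC domain and are found at CpG islands, the CpG-dense stretches that overlie many mammalian promoters. Mouse chromosome 8 holds genes of the pluripotent state such as Zfp42 and Klf2, developmental regulators such as the Irx and Fox genes, many genes used by every cell, and clusters expressed mainly in other tissues such as defensins and carboxylesterases. A gain of chromosome 8 is one of the recurrent changes that arise when mouse embryonic stem cells are kept in culture. A bulk ATAC-seq library counts accessible DNA from all copies in all cells. DNA copy number was not measured in the tables used here, so the number of copies and the accessibility per copy cannot be told apart, and neither can fewer open cells and less signal per cell.

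The sequences below belong to 3 of the 4 promoters that passed the test for a change after tamoxifen, to the single promoter that departed from its chromosome between lines, and to Zfp42, a stem cell gene that did neither. Each is the upstream 200 bases of the deposited interval in GRCm38 (mm10), read 5′ to 3′ on the gene's strand, with CG dinucleotides in capitals, a motif that reads the same on both strands.
Tmem231 (chr8:111933792-111933991, - strand): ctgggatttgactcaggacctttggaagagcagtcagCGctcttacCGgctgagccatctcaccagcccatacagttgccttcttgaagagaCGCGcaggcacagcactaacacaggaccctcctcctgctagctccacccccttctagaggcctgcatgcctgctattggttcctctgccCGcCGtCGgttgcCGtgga
Gab1 (chr8:80880480-80880679, - strand): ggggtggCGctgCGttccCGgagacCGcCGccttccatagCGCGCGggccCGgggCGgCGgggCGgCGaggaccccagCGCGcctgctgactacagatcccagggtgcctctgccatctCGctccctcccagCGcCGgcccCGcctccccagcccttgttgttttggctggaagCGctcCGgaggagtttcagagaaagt
Vdac3 (chr8:22593814-22594013, - strand): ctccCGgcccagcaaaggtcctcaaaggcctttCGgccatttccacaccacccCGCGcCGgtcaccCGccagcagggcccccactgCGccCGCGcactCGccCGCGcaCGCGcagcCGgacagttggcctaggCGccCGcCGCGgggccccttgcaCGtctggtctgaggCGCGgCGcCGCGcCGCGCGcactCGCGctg
Hdnr (chr8:57332235-57332434, + strand): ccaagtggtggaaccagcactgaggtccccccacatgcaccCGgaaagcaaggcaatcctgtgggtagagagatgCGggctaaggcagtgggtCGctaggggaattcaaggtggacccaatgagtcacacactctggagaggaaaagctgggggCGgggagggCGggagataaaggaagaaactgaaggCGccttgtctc
Zfp42 (chr8:43307010-43307209, - strand): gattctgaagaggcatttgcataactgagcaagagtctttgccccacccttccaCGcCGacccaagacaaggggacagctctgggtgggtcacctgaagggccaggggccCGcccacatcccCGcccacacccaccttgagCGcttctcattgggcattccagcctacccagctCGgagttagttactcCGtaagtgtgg
Vdac3 held 30 CG dinucleotides in these 200 bases and Gab1 held 21, and 4.68% and 18.7% of the 1026 chromosome 8 promoters with a known strand held as many or more. Tmem231 held 8, Zfp42 held 7 and Hdnr held 6, below the median of 11 for these promoters. As many or more were held by 63.4%, 67.5% and 71.3% of the promoters.

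Depth was 1488370 to 3025358 promoter reads per library, of which 80951 to 160830 fell on chromosome 8, with a median of 72 to 139 reads per chromosome 8 promoter. Replicates of a group differed by more than sampling noise in every group, so none was counted as a repeat of another. Promoters of 9 stem cell marker genes summed to between 584 and 858 RPM in each library, and those of 10 markers of other cells to between 187 and 330. Single markers of the lists overlapped. Pou5f1, Tdgf1 and both Esrrb promoters averaged 36.7, 37.7, 5.43 and 26.3, under the 39.3 of the median promoter. Tfap2c, Gata6 and Cdx2, of the other cells, averaged 43.9, 42.8 and 39.8. The remaining stem cell markers lay above that median and the remaining others below it. Zfp42 and Klf2, at 110 and 139, lie on chromosome 8.

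In Kdm2a/b-JmjC cells a larger share of all promoter reads lay on chromosome 8 than in any library of the other lines. The share was 7.24%, 7.28% and 7.13% in the untreated libraries and 7.19%, 7.09% and 6.94% in the tamoxifen-treated ones. In Kdm2b-CXXC cells it was 6.03%, 6.05% and 6.17% untreated and 5.99%, 6.0% and 6.06% treated. In Kdm2a/b-CXXC cells it was 5.44%, 5.52%, 5.58% and 5.72% untreated and 5.58%, 5.66%, 5.74% and 5.88% treated. In Kdm2a-CXXC cells it was 5.35%, 5.32% and 5.35% untreated and 5.30%, 5.38% and 5.35% treated. The ranges of the 4 lines did not overlap, whether or not the cells had been treated, and the order was Kdm2a/b-JmjC, Kdm2b-CXXC, Kdm2a/b-CXXC and Kdm2a-CXXC. Over all libraries of a line the means were 7.15% ± 0.122 (SD, n = 6), 6.05% ± 0.0657 (n = 6), 5.64% ± 0.139 (n = 8) and 5.34% ± 0.0273 (n = 6). Counting error was far smaller than these distances: in the lowest Kdm2a/b-JmjC library the 95% Wilson interval of the share ran from 6.90% to 6.98%. Such intervals cover counting error only.

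**Figure D1:**
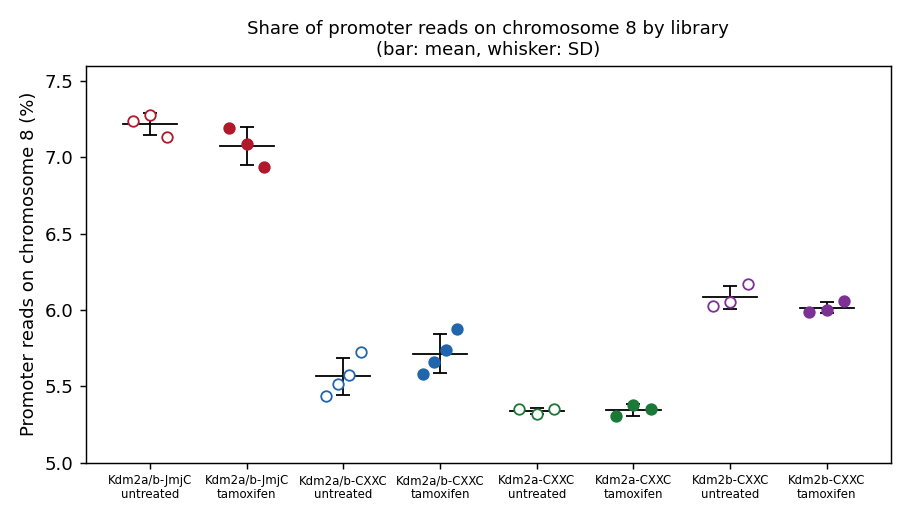
Percent of promoter reads on chromosome 8 in each library (points; open, untreated; filled, tamoxifen) by line and treatment, with the group mean (bar) and SD (whisker); the axis starts at 5%. The 6 Kdm2a/b-JmjC libraries sit between 6.94% and 7.28%, and all others between 5.30% and 6.17%.

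The shift was carried by nearly the whole set of promoters rather than by a few strong ones. For each promoter the mean log2(RPM + 1) of a line was compared with the mean of the other 3 lines. The median difference over the 921 promoters was 0.34 in Kdm2a/b-JmjC, 0.03 in Kdm2b-CXXC, -0.10 in Kdm2a/b-CXXC and, lowest, -0.26 in Kdm2a-CXXC. Kdm2a/b-JmjC had 895 promoters (97.2%) above 0, against 40.1% of 13823 promoters on chromosomes other than 1, 3, 8 and X. In Kdm2a-CXXC 75 chromosome 8 promoters (8.14%) lay above 0. Because each line is set against a mean that contains the others, a high line lowers the rest, and the lines were therefore also compared in pairs.

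Read pair by pair, the median chromosome 8 promoter was 1.36 times higher in Kdm2a/b-JmjC than in Kdm2a-CXXC, 1.26 times higher than in Kdm2a/b-CXXC and 1.18 times higher than in Kdm2b-CXXC. On the log2 scale these differences were 0.44, 0.34 and 0.24. Kdm2a/b-JmjC was the higher line at 97.9%, 94.0% and 89.8% of the 921 promoters. With reads scaled to the total of chromosomes other than 1, 3, 8 and X, the 3 ratios were 1.39, 1.33 and 1.24. The difference from Kdm2b-CXXC was 0.24 in untreated and 0.24 in treated cells, and that from Kdm2a/b-CXXC was 0.37 and 0.31. Kdm2b-CXXC, from which Kdm2a/b-CXXC was made, stood above it by 0.10 on the log2 scale.

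In 3 lines the chromosome 8 median lay outside the range of the 16 chromosomes other than 1, 3, 8 and X. The medians of those 16 lay between -0.09 and -0.0047 in Kdm2a/b-JmjC, under its 0.34 on chromosome 8. In Kdm2a-CXXC they lay between -0.14 and -0.0015 and in Kdm2a/b-CXXC between 0.0055 and 0.15, in both cases above the line's chromosome 8 value. In Kdm2b-CXXC they lay between 0.02 and 0.07, a range that holds its chromosome 8 value of 0.03. Chromosomes 1, 3 and X were left out of that range after their values had been seen. In Kdm2a/b-JmjC they stood at 0.39, -0.11 and 0.33, so that chromosome 1 lay above chromosome 8. For Kdm2a/b-CXXC the same 3 medians were -0.23, -0.07 and -0.06, and chromosome 1 lay lower than chromosome 8. Kdm2a-CXXC had 0.07, 0.24 and -0.20, and Kdm2b-CXXC -0.23, -0.06 and -0.04.

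**Figure D2:**
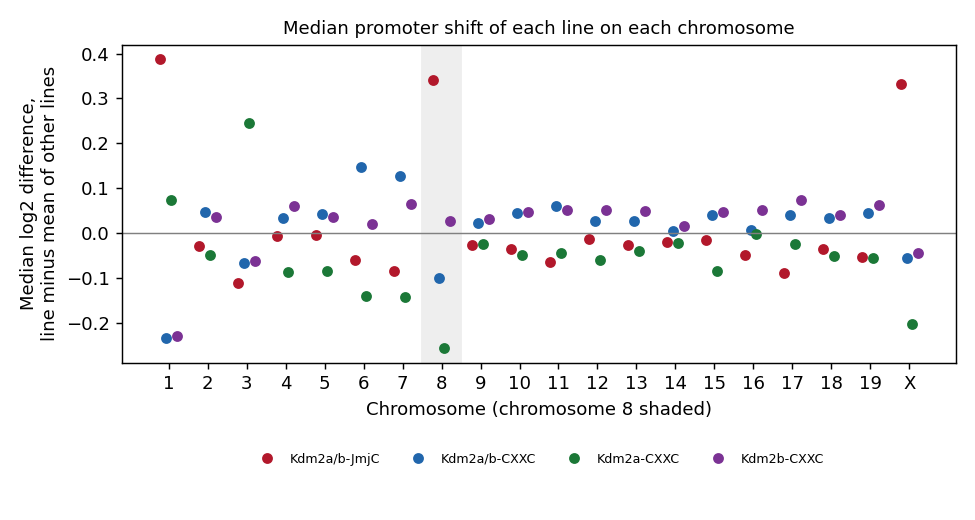
Median log2 difference in RPM between a line and the mean of the other 3 lines (vertical axis), for each chromosome (horizontal axis) and line (colour). On chromosome 8, shaded, Kdm2a/b-JmjC lies at 0.34 and Kdm2a-CXXC at -0.26.

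Single promoters were rarely separated between lines. All 6 Kdm2a/b-JmjC libraries lay above all 20 others at 70 of 921 chromosome 8 promoters (7.6%), against 1.13% of the 17106 promoters of all chromosomes. At no chromosome 8 promoter did all 6 lie below, against 0.129%. All Kdm2a-CXXC libraries lay below all others at 22 (2.39%), against 1.08% of all promoters. These counts come from the contrast that the choice of the chromosome rests on and are given as a description.

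Along the chromosome the shift in Kdm2a/b-JmjC was above 0 from end to end. In 13 bins of 10 Mb, each with 21 to 127 promoters, the median differed from the other lines by 0.29 at the least and 0.36 at the most. The 460 promoters nearer the centromeric end had a median of 0.33 and the 461 others had one of 0.35. Bin medians ran from -0.13 to -0.01 in Kdm2a/b-CXXC and from -0.02 to 0.06 in Kdm2b-CXXC. In Kdm2a-CXXC they ran from -0.45 to -0.16. Its lowest value, in the bin from 50 to 60 Mb, rested on the smallest number of promoters, 21, and the next lowest bin stood at -0.31. The bin from 50 to 60 Mb holds Hand2 and the departing promoter Hdnr, described below.

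**Figure D3:**
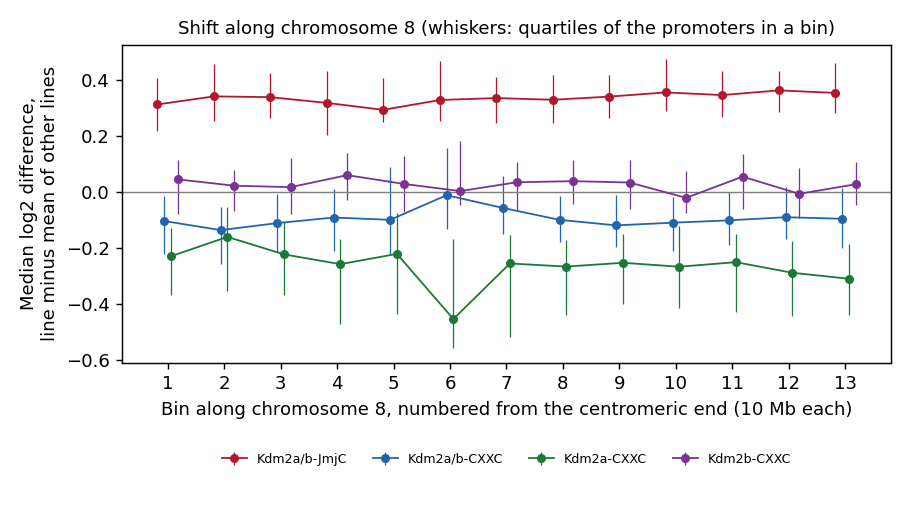
Median log2 difference between each line (colour) and the mean of the other lines in 13 consecutive 10 Mb bins of chromosome 8, numbered from the centromeric end; whiskers are the quartiles of the promoters in a bin. Kdm2a/b-JmjC stays between 0.29 and 0.36, and Kdm2a-CXXC falls to -0.45 in bin 6.

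The shift was seen in open and closed promoters and in CpG-rich and CpG-poor ones. With promoters split into quartiles of mean accessibility, from low to high, the Kdm2a/b-JmjC median on chromosome 8 was 0.47, 0.37, 0.30 and 0.33. Promoters of the same quartiles on chromosomes other than 1, 3, 8 and X had medians of 0.05, -0.03, -0.06 and -0.05. Chromosome 8 thus stood 0.42, 0.40, 0.36 and 0.39 above them. For 641 CpG-rich and 280 other promoters the distance was 0.37 and 0.41. In Kdm2a-CXXC chromosome 8 stood between 0.18 and 0.23 below the same quartiles of other chromosomes, and in Kdm2b-CXXC between 0.0062 and 0.04 below.

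The 116 promoters under the level of 5 RPM were raised too. Their reads summed to 601 ± 77.1 RPM in Kdm2a/b-JmjC (SD, n = 6), from 508 to 706 in single libraries. The sums were 421 ± 32.3 in Kdm2a-CXXC (n = 6), 398 ± 67.3 in Kdm2a/b-CXXC (n = 8) and 391 ± 21.6 in Kdm2b-CXXC (n = 6). Kdm2a/b-JmjC stood 1.49 times above the mean of the other lines at these promoters, while the 921 others summed to 1.26 times that mean. At 2784 promoters under the same level on chromosomes other than 1, 3, 8 and X the ratio was 1.10.

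Gene groups of chromosome 8, listed with earlier results of these data known, lay with the chromosome in most cases. Among 15 promoters of housekeeping genes, used by nearly every cell, the median difference of Kdm2a/b-JmjC from the other lines was 0.41, and all 15 lay above 0. Rpl13, a protein of the large ribosomal subunit, stood at 127 ± 14.4 RPM in Kdm2a/b-JmjC (SD, n = 6), against 91.5 to 95.5 in the means of the other lines. Ndufb7, a subunit of respiratory complex I, stood at 124 ± 7.47, against 72.6 to 84.0. All 10 promoters of replication and repair genes, such as the helicase subunit gene Mcm5 and the licensing factor gene Cdt1, lay above 0, with a median of 0.29. Chromatin and transcription regulators, of which 15 of 16 listed genes were found, had 18 promoters past the level, all above 0, with a median of 0.38. Ctcf, which encodes the insulator-binding protein, stood at 145 ± 12.5 in Kdm2a/b-JmjC, against 103 to 116 elsewhere.

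Stem cell genes were raised least among the groups. The 6 promoters had a median of 0.21 and reached at most 0.28, and 5 lay above 0. Zfp42, a zinc finger gene widely used as a pluripotency marker, ranged from 96.8 to 139 RPM in Kdm2a/b-JmjC (median 131) and from 110 to 132 in Kdm2a-CXXC (median 120), so that these lines overlapped. In Kdm2a/b-CXXC it ranged from 70.7 to 111 (median 95.6) and in Kdm2b-CXXC from 88.5 to 124 (median 105). Klf2, a Krüppel-like factor gene of naive pluripotency, stood at 162 ± 20.3 in Kdm2a/b-JmjC against means of 128 to 137. Fgfr1, a receptor for fibroblast growth factors, was at 73.4 ± 5.31 in Kdm2a/b-JmjC, between the 62.3 of Kdm2a-CXXC and the 83.0 of Kdm2b-CXXC, and did not follow the chromosome.

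Developmental transcription factor genes are mostly silent in mESCs. Their 13 promoters past the level all lay above 0 in Kdm2a/b-JmjC, with a median of 0.44 and a range from 0.17 to 0.77. In Kdm2a-CXXC 1 of 13 lay above 0, with a median of -0.40, a wider distance than the chromosome's -0.26. It was near that of less accessible promoters: chromosome 8 medians in this line were -0.39 and -0.43 in accessibility quartiles 1 and 2, and -0.17 in quartile 4. Hand2, a factor of heart and limb development, stood at 15.9 ± 3.71 RPM in Kdm2a-CXXC (SD, n = 6), against 24.1 to 29.5 in the means of the other lines. Foxf1, a mesoderm factor, stood at 22.5 ± 3.13, against 33.3 to 41.4. The exception was Nkx6-3, which at 13.5 ± 3.17 was higher than the 5.74 ± 1.87 of Kdm2b-CXXC.

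Tissue-specific clusters were low in every line and highest in Kdm2a/b-JmjC. The 8 defensin promoters together gave 57.2 ± 7.63 RPM in Kdm2a/b-JmjC, and 32.9 to 36 in the means of the other lines. The 13 carboxylesterase promoters gave 64.1 ± 10.4, against 43.6 to 50.2. Only 1 promoter in each cluster passed the level. The cadherins, which encode adhesion proteins, had 7 of 8 promoters past the level, and all 7 lay above 0 with a median of 0.36. The 4 metallothioneins, metal-binding proteins encoded side by side, lay above 0 in Kdm2a/b-JmjC with a median of 0.45, and Mt2 stood at 167 ± 16.3 in Kdm2a/b-JmjC against 154 ± 21.2 in Kdm2b-CXXC.

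Few promoters departed from the chromosome's shift. A departure was a difference of at least 1 on the log2 scale from the line's own chromosome median, with all libraries of the line beyond all others once each had been centred on its chromosome. No promoter of the 921 departed in Kdm2a/b-JmjC, Kdm2a/b-CXXC or Kdm2b-CXXC, and 1 did in Kdm2a-CXXC. Over all chromosomes such departures made up 0.0351% of 17106 promoters in Kdm2a/b-JmjC (0.0234% lower). For Kdm2a/b-CXXC the figure was 0.0292%, for Kdm2b-CXXC 0%, and for Kdm2a-CXXC 1%, of which 0.345% were lower. The promoter in Kdm2a-CXXC was 0.109% of those on chromosome 8. The spread of single promoters around the chromosome's median (SD over promoters) was 0.19 in Kdm2a/b-JmjC on chromosome 8 and 0.21 on other chromosomes.

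The departing promoter, Hdnr (NR_131041, chr8:57332235-57332634), belongs to a noncoding RNA and was not CpG-rich. It gave 6.73, 8.26 and 6.87 RPM in untreated and 4.46, 6.17 and 4.91 in treated Kdm2a-CXXC cells. Kdm2a/b-JmjC libraries ran from 13.7 to 21.2 (median 17.6), those of Kdm2a/b-CXXC from 10.3 to 28.3 (median 16.5) and those of Kdm2b-CXXC from 12.9 to 24.9 (median 18). No Kdm2a-CXXC library reached the lowest library of another line, and the departure was -1.10. Pdlim3, which encodes a PDZ and LIM domain protein of muscle, came next at -0.75, with 13.9 to 24.7 in Kdm2a-CXXC and 27.8 to 59.6 in the other libraries.

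With the departure lowered to 0.5, a value chosen after the data were seen, 1 promoter stayed behind in Kdm2a/b-JmjC, 0.109% of the 921 against 0.0702% of all promoters. In Kdm2a-CXXC the lower ones were then Hdnr and Pdlim3, 0.217% against 0.924%. The promoter in Kdm2a/b-JmjC was 1810019D21Rik, which has a noncoding transcript, at -0.77. Its values in Kdm2a/b-JmjC ran from 30.8 to 47.5 (median 39.4) and in the other lines from 39.7 to 72.1, so that the libraries overlapped before centring. Its mean was 39.4 ± 7.0 there (SD, n = 6), against 57.1 ± 11.5 for Kdm2a/b-CXXC (n = 8), 48.2 ± 6.29 for Kdm2a-CXXC and 55.9 ± 11.1 for Kdm2b-CXXC (n = 6 each).

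Another 7 differences of at least 1 from the chromosome's median failed only because libraries overlapped, among 5 further promoters named here after their values were seen. With overlap allowed, such differences made up 0.217% of chromosome 8 promoters in Kdm2a/b-JmjC, against 0.124% on other chromosomes. The shares were 0.434% against 0.198% in Kdm2a/b-CXXC, 0.217% against 1.75% in Kdm2a-CXXC and 0% against 0.0865% in Kdm2b-CXXC. AI429214 gave 16.9 ± 3.97 RPM in Kdm2a/b-JmjC (SD, n = 6) and 17.3 ± 1.32 in Kdm2a-CXXC (n = 6), but 48.1 ± 8.21 in Kdm2a/b-CXXC (n = 8) and 42.6 ± 5.37 in Kdm2b-CXXC (n = 6). Its highest library in the first pair reached 23.2 and its lowest in the second pair was 32.9, so the related lines Kdm2a/b-CXXC and Kdm2b-CXXC shared the high level. Nat2, an arylamine N-acetyltransferase gene, gave 10.2 ± 5.18 in Kdm2a/b-JmjC but 23.2 ± 4.34 in Kdm2a/b-CXXC, with 11.2 ± 3.71 and 16.1 ± 5.27 in Kdm2a-CXXC and Kdm2b-CXXC. The others were Lrp2bp, high in Kdm2a/b-CXXC at 23.7 ± 4.88 against 10.2 to 15.7, Sult5a1, low there at 8.78 ± 3.68 against 15.2 to 23.4, and Gm29682, high in Kdm2a-CXXC at 21.4 ± 4.61 against 6.89 to 15.5.

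**Figure D4:**
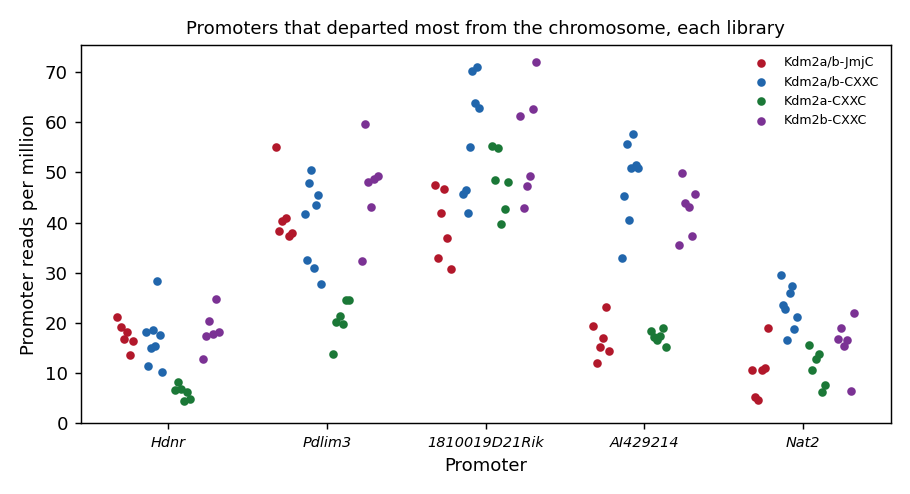
Promoter reads per library scaled to RPM (vertical axis) in each library (points) of the 4 lines (colours) for promoters at or near the limit for a departure. Kdm2a-CXXC libraries lie below all others at Hdnr and Pdlim3, and at AI429214 the Kdm2a/b-JmjC and Kdm2a-CXXC libraries lie below those of the other 2 lines.

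In all, 26 promoters (2.82% of 921) did not stand above the other lines' mean in Kdm2a/b-JmjC cells, and 6 of them were CpG-rich. They were less accessible than the whole set, with a median of 16.9 RPM against 61.5 for the 921. Less accessible promoters were not raised less as a class, since the lowest accessibility quartile had the largest median, 0.47. Of the 26 promoters, AI429214, Nat2 and Lrp2bp stood lowest, at -0.94, -0.69 and -0.49. Fgfr1 and Elmo3, the latter a gene of cell engulfment and migration, were among the most accessible of them, at -0.0028 and -0.03.

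No test with 3 or 4 libraries a group found a shift of chromosome 8 as a whole after tamoxifen. In Kdm2a/b-JmjC the chromosome's shift, the median log2 difference of a library from the mean of the 4 lines, was 0.27 ± 0.02 untreated and 0.25 ± 0.03 treated (SD, n = 3 each; exact two-sided permutation p = 0.5, adjusted over the 4 lines p = 0.667). In Kdm2a/b-CXXC it was -0.08 ± 0.03 and -0.05 ± 0.03 (n = 4 each; exact permutation p = 0.171, adjusted p = 0.343). In Kdm2a-CXXC it was -0.19 ± 0.0035 and -0.18 ± 0.0057 (n = 3 each; exact permutation p = 0.1, adjusted p = 0.343), and all 3 treated libraries lay above all 3 untreated ones. In Kdm2b-CXXC it was 0.03 ± 0.02 and 0.02 ± 0.0074 (n = 3 each; exact permutation p = 0.7, adjusted p = 0.7). With 3 libraries against 3 this test cannot give a p under 0.1, and with 4 against 4 none under 0.0286. No difference between treated and untreated means was larger than 0.04, beside the mean of 0.26 over all Kdm2a/b-JmjC libraries on the same measure. As a share of promoter reads, chromosome 8 went from 5.56% untreated to 5.71% treated in Kdm2a/b-CXXC (exact permutation p = 0.114) and from 7.22% to 7.07% in Kdm2a/b-JmjC (exact permutation p = 0.2). It was 5.34% in both groups of Kdm2a-CXXC (exact permutation p = 1), and 6.08% and 6.01% in those of Kdm2b-CXXC (exact permutation p = 0.3). Adjusted over the 4 lines the smallest of these exact p-values was 0.4.

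Single chromosome 8 promoters were next compared on the calibrated scale, log2(calibrated reads + 1), within each line. In Kdm2a/b-JmjC 4 of 964 tested promoters on chromosome 8 fell and 0 rose (limma, adjusted p under 0.05 and a fold over 1.4). That was 0.415% of the chromosome's promoters, against 0.0757% of the 17174 tested in all, 13 in number. An unadjusted p under 0.05 was reached by 29.4% of chromosome 8 promoters and by 20.6% of all. The chromosome's promoters also carried more reads in this line, a median of 122 per library against 88.3 elsewhere, and their standard errors were smaller, with a median of 0.17 against 0.19. Their part in the count was not tested.

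Most promoters were lower after tamoxifen on this scale in Kdm2a/b-JmjC. The median change after tamoxifen was -0.21 over all promoters and -0.23 over those of chromosome 8, so the changes of single promoters stand on a general fall. With TMM scaling, which removes that fall, no promoter passed on chromosome 8 or elsewhere. An unadjusted p under 0.05 was then reached by 51 chromosome 8 promoters, 5.29%, against 5.63% of all. The smallest adjusted p on chromosome 8 was then 0.813, at Zmat4. On the calibrated scale edgeR called 9 chromosome 8 promoters, where it called 0.664% of all, and DESeq2 called 0. The count also rested on single libraries. It was 0 without untreated replicate 1, untreated replicate 2 or treated replicate 3. Without treated replicate 2 it was 3 of 975, where 12 of 17478 passed in all. Leaving out untreated replicate 3 gave 8 of 985, with 59 of 17568 in all. Leaving out treated replicate 1 gave 60 of 994, with 607 of 17920 in all.

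Zmat4, a gene of a matrin-type zinc finger protein, showed the largest fall. Its calibrated reads were 126.5, 136.9 and 101.7 in untreated and 50.2, 81.4 and 64.5 in treated Kdm2a/b-JmjC cells, without overlap. The change was -0.90 on the log2 scale (SE 0.19, limma adjusted p = 0.0137), and -0.70 with TMM scaling. In the other lines its changes were between 0.0013 and 0.13 and treated and untreated libraries overlapped.

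Tmem231 (NM_001033321, chr8:111933592-111933991) encodes a membrane protein of the transition zone at the base of primary cilia. Its calibrated reads were 340, 318 and 266 in untreated and 194, 232 and 182 in treated Kdm2a/b-JmjC cells. The groups did not overlap, with treated cells lower, as was so at 23.2% of the promoters tested on all chromosomes. The change was -0.60 (SE 0.13, limma adjusted p = 0.0137), and -0.40 with TMM scaling.

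Gab1 (NM_021356, chr8:80880280-80880679) encodes an adaptor that docks signalling proteins downstream of receptor tyrosine kinases. Its calibrated reads were 261, 267 and 247 in untreated and 214, 142 and 168 in treated cells of this line. The change was -0.58 (SE 0.13, limma adjusted p = 0.0356), and -0.38 with TMM scaling. Over treated and untreated libraries together, Kdm2a/b-JmjC stood above the other lines at Gab1 by 0.06. Untreated, its libraries gave 137 to 144 RPM, above the 108 to 132 of untreated libraries of the other lines. Treated, they gave 95.4 to 126, within the 90.5 to 145 of treated libraries of the other lines.

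Vdac3 (NM_001198998, chr8:22593614-22594013) encodes an anion channel of the outer mitochondrial membrane. Its calibrated reads were 277, 320 and 292 in untreated and 240, 187 and 191 in treated cells, again without overlap. The change was -0.53 (SE 0.13, limma adjusted p = 0.0481), the weakest of the 4 by p, and -0.32 with TMM scaling. The call was lost with no filter on low values (limma adjusted p = 0.0538) and in 5 of the 6 limma fits that left out a library, where the adjusted p ran from 0.00312 to 0.188. Ap3m2, which encodes a subunit of an adaptor complex for vesicle transport, had an adjusted p of 0.0298 in limma, but its change of -0.49 came just short of 1.4-fold.

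**Figure D5:**
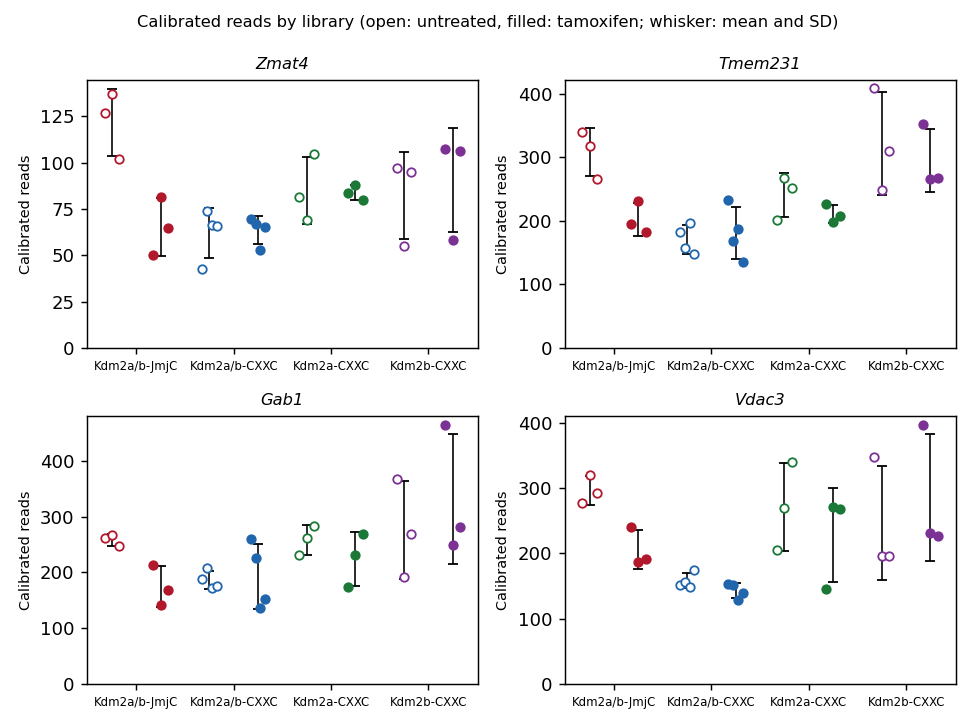
Calibrated reads (vertical axis) of the 4 promoters that passed the test in Kdm2a/b-JmjC, in each library of the 4 lines (open points, untreated; filled, tamoxifen; whiskers, mean and SD). In Kdm2a/b-JmjC the treated libraries lie below the untreated ones at all 4, and in the other lines they overlap.

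In the gene groups, only Vdac3 among the housekeeping promoters passed the test in Kdm2a/b-JmjC, and none passed in another group. The medians of the groups in this line were -0.26 for 15 housekeeping promoters, -0.30 for 6 stem cell, -0.20 for 10 replication and repair, -0.19 for 18 chromatin and -0.36 for 13 developmental promoters, beside -0.23 for the chromosome. The 7 cadherins tested had a median of -0.31 and the 4 metallothioneins one of -0.07. Of the defensins and carboxylesterases 5 and 3 were tested, with medians of 0.12 and 0.67 at low read numbers.

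No chromosome 8 promoter passed in the CxxC lines in these fits, which did not use the replicate number. In Kdm2a/b-CXXC 0 of 872 passed, where 0 of 16413 passed in all, and 6.31% had an unadjusted p under 0.05 against 4.65% of all promoters. In Kdm2a-CXXC 0 of 931 passed, 0 of 17727 in all, and 8.70% had an unadjusted p under 0.05 against 8.39%. In Kdm2b-CXXC 0 of 947 passed, 0 of 17930 in all, and 0.739% had an unadjusted p under 0.05 against 0.669%. edgeR and DESeq2 also called 0 on chromosome 8 in each of these lines. With TMM scaling 0.104% of all promoters passed in Kdm2a/b-CXXC and none of these lay on chromosome 8. The median changes of chromosome 8 promoters were 0.13, -0.18 and 0.09, beside 0.09, -0.18 and 0.10 over all promoters. In Kdm2b-CXXC the median standard error was 0.37, against 0.17 to 0.21 in the other lines, so only larger changes could have passed in that fit. The standard error there depended on the replicate number. With that number as a block it was 0.11 in place of 0.37 at Tmem231, and 0.18 in place of 0.36 at Ddx60. In Kdm2b-CXXC 11.1% of chromosome 8 promoters then had an unadjusted p under 0.05, against 9.96% of all. With the replicate number as a block, 10 of 931 passed in Kdm2a-CXXC, where 188 of 17727 passed in all. In Kdm2b-CXXC 1 of 947 then passed, 5 of 17930 in all, and in Kdm2a/b-CXXC again 0.

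The promoters with the smallest unadjusted p were far from the threshold in the fits on the calibrated scale without the replicate number. In Kdm2a/b-CXXC these were Cilp2, of a cartilage protein family (0.70, limma adjusted p = 0.650), and the muscle cadherin gene Cdh15 (0.84, adjusted p = 0.787). In Kdm2a-CXXC they were Hhip, which encodes a Hedgehog-binding inhibitor (-1.02, limma adjusted p = 0.579), and Elmo3 (-0.63, adjusted p = 0.579). In Kdm2b-CXXC they were the homeobox gene Isx (-1.64, limma adjusted p = 1.00) and Ddx60 (-0.83, adjusted p = 1.00).

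Ddx60, a helicase gene of the antiviral response, was the single chromosome 8 promoter of the CxxC lines called with another scaling. In Kdm2b-CXXC its calibrated reads were 110, 89.9 and 118.5 untreated and 65.5, 47.3 and 66.1 treated, without overlap. With TMM scaling Ddx60 fell and was the only one called of 17930, which is 0.00558%. On the calibrated scale it was called once the replicate number was a block (limma adjusted p = 0.0416), where 5 of 17930 passed in all. In Kdm2a/b-JmjC the values were 79.0, 78.0 and 96.2 untreated and 57.7, 52.5 and 53.2 treated, a log2 difference of -0.62 (SE 0.21, limma adjusted p = 0.102). For Kdm2a/b-CXXC the change was -0.56 and in Kdm2a-CXXC -0.46, and neither passed. Between lines, Ddx60 stood lowest in Kdm2a-CXXC, at 18.2 ± 2.7 RPM (SD, n = 6) against 32.1 to 40.3.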

How the data were processed

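Calibrated ATAC-seq signal was analysed from 4 deposited tables, 1 per line. Per the labels and the study's methods, the authors aligned reads with Bowtie2 to joined mm10 and dm6 genomes, removed multiply mapped reads and PCR duplicates, and counted mouse reads in 400 bp promoter intervals. The deposited signal is that count divided by a DESeq2 size factor from the Drosophila reads. The authors' own fold changes and p-values, in the same tables, were not used. The 26 input genomic DNA samples were not analysed here.

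Whole reads were recovered from the steps between values (100% within 0.01 of a whole read in each library). For levels across lines, reads were scaled to the library's promoter total (RPM), since the tables were calibrated separately; no test was made across tables. Treated and untreated cells were compared by limma 3.58.1 (trended variance) on log2(calibrated signal + 1) after edgeR's filterByExpr, with Benjamini-Hochberg adjustment over all promoters; fold changes on that scale understate the change of low promoters. edgeR 4.0.16 and DESeq2 1.42.0 on the recovered reads were alternatives. Shifts were compared by exact permutation tests in scipy 1.17.1. Adjusted p-values are limma's unless named.

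Promoters were called CpG-rich from a GC content of 0.5 upwards where observed over expected CpG reached 0.6. Names, strands and sequences are from RefSeq on GRCm38.p6, the same build as mm10, and coordinates are 1-based; the sequence of 1 promoter is not reported here; of the chromosome 8 promoters, 995 had the annotated start within 200 bp of the interval's centre. The study's methods call the replicates biological. Neither they nor the labels say that replicates were separate cultures, so p-values measure the spread between these samples.

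The members, gene lists and rules were chosen with earlier results of these data known. Promoters were named if they belonged to the lists, passed the limma test, had the 2 smallest unadjusted p in a line where none passed, or departed most from the chromosome; any others are marked as such in the text. Scripts were tested on simulated data: a planted shift of 0.35 on chromosome 8 in Kdm2a/b-JmjC, over 921 promoters, came back as 0.32, and 20 of 20 planted departures were found.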

Additional observations from a re-analysis of the deposited data

Results flagged for a closer look

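The chromosome 8 shift moved up with tamoxifen in every treated Kdm2a-CXXC library, by a mean of 0.0112 on the log2 scale, and down from the untreated mean in every treated Kdm2b-CXXC library, by -0.0070; the difference between the lines was not tested, and both moves are small beside the distances between lines. At Vdac3 all treated Kdm2a/b-JmjC libraries lay below the untreated mean, by -31.5 RPM on average, and all treated Kdm2b-CXXC libraries lay above theirs, by 8.88. At Gab1 the same held with -31.2 in Kdm2a/b-JmjC and 14.3 in Kdm2b-CXXC. Neither difference between lines was tested.

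In treated Kdm2a/b-CXXC cells 1 library stood apart at Sult5a1, with 21.5 calibrated reads, a gap of 0.978 of the group's range. Of 54 groups of 4 libraries looked at in this way this was the 1 that stood apart, and chance alone gives about 1 in 20.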

How the results depend on the processing

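Between lines, Kdm2a/b-JmjC stayed above and Kdm2a/b-CXXC and Kdm2a-CXXC below the other lines on chromosome 8 under every setting tried, while the small value of Kdm2b-CXXC changed sign. With reads scaled to chromosomes other than 1, 3, 8 and X the medians, in that order, were 0.40, -0.14, -0.24 and -0.0014. TMM scaling gave -0.21 in Kdm2a-CXXC and 0.011 in Kdm2b-CXXC, centring within 10 bins of GC content gave -0.21 and -0.0026, and the log2 ratio of summed shares, chosen after the data were seen, gave -0.23 and 0.014. In Kdm2a-CXXC a pseudocount of 0.25 gave -0.26, a pseudocount of 4 gave -0.23, no filter gave -0.24 and a mean of at least 20 RPM gave -0.24. Without single libraries the medians ran from 0.34 to 0.35, from -0.11 to -0.09, from -0.26 to -0.25 and from 0.02 to 0.03 in the same order of lines. The distance from the lowest to the highest bin median in bins of 20 Mb was 0.067 for Kdm2a/b-CXXC, 0.13 for Kdm2a-CXXC and 0.025 for Kdm2b-CXXC, and for Kdm2a-CXXC 0.16 in the 18 of 26 bins of 5 Mb that held at least 20 promoters. Over all 26 its bin medians ran from -0.49 to -0.16. Departures numbered 1 in Kdm2a/b-JmjC and 2 in Kdm2a-CXXC at 0.5, and in Kdm2a-CXXC 0 with a pseudocount of 4 or a mean of at least 20 RPM and 2 with GC centring. Without single libraries they ran from 0 to 1 in Kdm2a/b-JmjC (1 without its treated replicate 2), from 0 to 1 in Kdm2a/b-CXXC (1 without treated Kdm2b-CXXC replicate 3) and from 1 to 2 in Kdm2a-CXXC (2 without treated Kdm2a/b-JmjC replicate 3 or treated Kdm2a-CXXC replicate 1).

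After tamoxifen, 4 calls in Kdm2a/b-JmjC became 0 with TMM, total-read or median-of-ratios scaling and with DESeq2. They became 9 with edgeR, 3 with no filter on low values, and 5 and 6 with pseudocounts of 0.5 and 5. Over all promoters these 4 fits called 114, 11, 14 and 71. Without single libraries the chromosome 8 calls ran from 0 to 60, the 60 beside 607 over all promoters. In Kdm2b-CXXC each of the 3 scalings gave 1 call, the only 1 over all promoters. In Kdm2a-CXXC calls ran from 0 to 3 without single libraries. The 3, of 959 tested, came without treated replicate 3, where 43 of 18304 passed in all. The chromosome's shift after tamoxifen turned to -0.0012 with TMM scaling in Kdm2a-CXXC. Without single libraries it ran from -0.036 to 0.0022 in Kdm2a/b-JmjC, where the sign turned without treated replicate 3, and from -0.018 to 0.0012 in Kdm2b-CXXC, where it turned without untreated replicate 3. Calibration, read depth and the small number of libraries limit these comparisons, and the causes of the changes were not tested.

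Over promoters, the correlations between libraries of the same number in their deviations from the group means ran from -0.017 to 0.076, so the numbers were not taken to pair the samples. With the replicate number as a block, the calls in the same order of lines were 5, 0, 10 and 1, and with the block and TMM scaling 0, 0, 0 and 1. In Kdm2a/b-JmjC each of the 3 numbers correlated best with its own number, a hint from the data only. Paired by number, the chromosome's shift moved by -0.02, 0.04, 0.01 and -0.0070 in that order of lines. The exact sign-flip permutation p-values were 0.5, 0.125, 0.25 and 0.5, where 4 pairs cannot give less than 0.125 and 3 pairs not less than 0.25. Paired by number, the chromosome's share of promoter reads was higher after tamoxifen in 4 of 4 pairs of Kdm2a/b-CXXC, by 0.142 to 0.159 percentage points (exact sign-flip permutation p = 0.125), and in 0 of 3 pairs of Kdm2a/b-JmjC and of Kdm2b-CXXC (exact sign-flip permutation p = 0.25 each).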
